A study of Mus musculus with 21 samples.

Results

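NMDA receptors are glutamate-gated cation channels, and the mRNAs of 6 of their subunits, Grin1, Grin2a, Grin2b, Grin2c, Grin2d and Grin3a, were compared in brains of SAMP8 mice given HsTX1[R14A] or PBS. The 6 genes were taken by symbol from a table of 16318 genes, without regard to their levels, and each was found once. Grin3b was not analysed here.

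Whole-brain RNA came from 21 mice of SAMP8, a senescence-accelerated strain with memory deficits, and was sequenced with 1 library per mouse. Phosphate-buffered saline (PBS) had been given to 12 mice (6 female and 6 male), and HsTX1[R14A], a peptide that blocks the voltage-gated potassium channel Kv1.3, to 9 mice (3 female and 6 male). Dosing was subcutaneous, every other day at 1 mg/kg, for 8 weeks from 4 months of age. Every mouse was SAMP8 and had been injected, so neither the strain nor the injection can be read from the comparison, and the treated females number only 3.

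The NMDA receptor needs glutamate together with glycine or D-serine to open, is blocked by magnesium at rest, and carries calcium into the cell. GluN1, the product of Grin1, is present in every NMDA receptor, while the GluN2 subunits bind glutamate and set the speed and the magnesium block of the channel. GluN2B prevails early in life and GluN2A gains after birth in the forebrain, GluN2C is known from cerebellar granule cells, GluN2D from interneurons and deep brain regions, and GluN3A from young neurons, where it lowers calcium entry.

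Depth ranged from 14917174 to 47613792 counts per library, and the groups' totals overlapped. Markers of neurons, forebrain excitatory neurons, cerebellar granule cells, interneurons, astrocytes, oligodendrocytes, microglia, endothelium and choroid plexus were looked for. No marker was at 0 in every mouse. Of the cerebellar granule cell markers, Fat2, Cbln3 and Gabra6 were the lowest in PBS-treated brains. Their means there were 0.687 ± 1.126, 2.098 ± 4.372 and 1.698 ± 4.316 CPM (counts scaled to library size, SD, n = 12). With HsTX1[R14A] they were 6.336 ± 16.85, 15.52 ± 42.16 and 10.82 ± 29.73 CPM (n = 9). Each of these SDs exceeded its mean, so the means can rest on few brains and do not describe a typical one. Summed over the 10 markers of this list, the median was 250.7 CPM with PBS (highest 386.5) and 225.2 CPM with HsTX1[R14A] (highest 876.6). The other markers of this list had PBS means from 11.74 (Neurod1) to 70.13 CPM (Zic1). How much cerebellum each sample held was not tested. The deposited headers spell the libraries in 2 ways, one for 10 PBS-treated and 5 HsTX1[R14A]-treated mice and the other for 2 and 4, and what the spelling stands for is not stated. The libraries also differed in how counts depended on transcript length. The length slope of a library is the slope of its log2 CPM (read counts scaled to library size, less each gene's 21-mouse mean) on the log2 length of the longest transcript, and it ran from -0.384 to 0.147 in PBS-treated mice (median -0.023) and from -0.142 to 0.234 in HsTX1[R14A]-treated mice (median 0.15).

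All 6 genes lie on the minus strand of GRCm38 and differ widely in the length of their mRNA. The short ones are Grin1 (chromosome 2, 25291181 to 25319187, longest transcript 4276 bases), Grin2c (chromosome 11, 115249169 to 115267243, 4895 bases) and Grin2d (chromosome 7, 45831883 to 45878378, 5431 bases). Grin3a (chromosome 4, 49661611 to 49845744) has a longest transcript of 7491 bases. The long ones are Grin2a (chromosome 16, 9567898 to 9995560, 14634 bases) and Grin2b (chromosome 6, 135713233 to 136173511, 24060 bases). Over all genes of the table with a length, the median was 3282 bases. Annotated genes on the opposite strand share exon bases with Grin1 (Grin1os, 1307 bases) and Grin2d (Gm45441, 643 bases), and fewer with Grin2b and Grin2c. The study's methods name a directional library kit and the labels name another kit. Whether strand was used in counting is not given in the sources used here. It is therefore not known whether reads of these partners were kept apart from those of the subunit in the shared stretch.

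RefSeq promoter sequences (GRCm38.p6) were found for 3 of the 6 genes, Grin1, Grin2c and Grin2d. The 250 bases before the start of Grin1, the obligatory subunit, and of Grin2c are shown because they were the windows among these 3 that held any of the motifs searched. Capitals mark the E-box CACGTG in Grin1 and the GC box GGGCGG in Grin2c, and both sequences run 5′ to 3′ on the minus strand.
Grin1, chr2:25319188-25319437: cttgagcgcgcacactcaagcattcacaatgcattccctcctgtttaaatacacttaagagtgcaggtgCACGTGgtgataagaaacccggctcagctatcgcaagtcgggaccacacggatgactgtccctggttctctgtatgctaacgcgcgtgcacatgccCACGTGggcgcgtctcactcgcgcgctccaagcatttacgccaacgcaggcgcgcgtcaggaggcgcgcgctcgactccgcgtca
Grin2c, chr11:115267244-115267493: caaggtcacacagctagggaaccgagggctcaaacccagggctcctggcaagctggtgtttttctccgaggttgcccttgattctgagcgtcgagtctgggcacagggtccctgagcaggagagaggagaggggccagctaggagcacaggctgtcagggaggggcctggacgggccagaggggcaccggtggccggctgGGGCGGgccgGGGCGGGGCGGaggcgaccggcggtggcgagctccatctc

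The Grin1 promoter held 2 E-boxes and 27 CG pairs at a GC content of 58.8%, against a median of 6 CG pairs and 52.4% over 32851 promoters of the same length. An E-box was present in 6.02% of those promoters. The Grin2c promoter held 3 GC boxes, 2 of which overlap by 1 base, and 15 CG pairs at 68.8% GC, and 32.7% of all promoters held the GC box on either strand. Of the other motifs searched on both strands, the CRE core TGACG (17.8% of promoters) was found 2 times in Grin1, and the TATA box TATAAA (12.4%) and the CCAAT box (33.8%) in neither. The Grin2d window had 54.4% GC, 9 CG pairs and none of these motifs, and the start it precedes is not the start of a GENCODE transcript. These matches describe letters in a window and do not show binding.

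Per length, Grin1 was the most abundant subunit mRNA of both groups, and Grin2d the least. Levels are CPM scaled by TMM (the trimmed mean of M values) and divided by the kilobases of the longest transcript. In PBS-treated brains Grin1 stood at 48.4 ± 21.9 CPM per kb (SD, n = 12), followed by Grin2a at 9.96 ± 3.24, Grin2b at 7.45 ± 3.13, Grin2c at 6.16 ± 2.18, Grin3a at 4.35 ± 1.24 and Grin2d at 1.502 ± 0.975. Grin1 exceeded Grin2a in 12 of 12 brains with ranges that did not overlap, whereas each of the later neighbors in this order overlapped in range. Within a brain the order was still mostly kept, with Grin2a above Grin2b in 11 of 12, Grin2b above Grin2c in 10, Grin2c above Grin3a in 11 and Grin3a above Grin2d in 12.

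In HsTX1[R14A]-treated brains Grin1 stood at 80.7 ± 29.6 CPM per kb (SD, n = 9), and Grin2b at 13.1 ± 4.75 came next, before Grin2a at 12.3 ± 2.70. This pair did not differ beyond its spread, with Grin2b the higher in 5 of 9 brains. Grin2c at 8.52 ± 2.44, Grin3a at 6.12 ± 1.86 and Grin2d at 2.71 ± 1.47 followed in the same order as in PBS-treated brains. Divided by total exon length instead, Grin1 fell to 21.3 ± 9.66 in PBS-treated and 35.6 ± 13.03 CPM per kb in HsTX1[R14A]-treated brains, and its range then overlapped that of the next subunit.

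**Figure D1:**
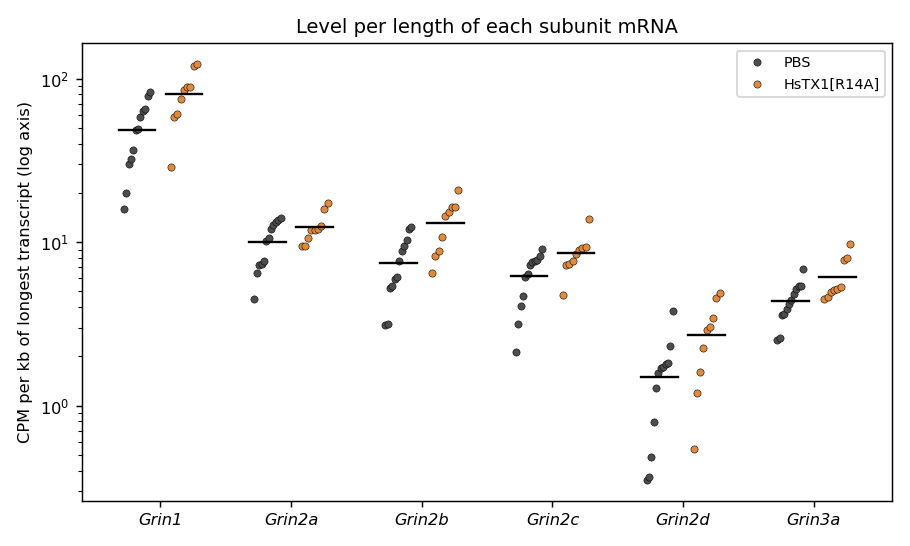
Level of each NMDA receptor subunit mRNA in CPM per kb of the longest transcript (log axis) for PBS-treated (n = 12) and HsTX1[R14A]-treated (n = 9) brains, 1 point per mouse, with a bar at the mean. Grin1, at means of 48.4 and 80.7 CPM per kb, is the only subunit whose range is clear of the next, and Grin2d is lowest in both groups.

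The comparison of HsTX1[R14A]-treated with PBS-treated brains asks whether dosing with this peptide was accompanied by a change of these mRNAs. In a fit across 16303 genes with sex in the model (edgeR's quasi-likelihood test, FDR of at most 0.05 by Benjamini and Hochberg over all genes tested), 3 of the 6 subunits were called, Grin1, Grin2b and Grin3a, all higher in HsTX1[R14A]-treated brains. Of all genes tested, 31.6% were called in either direction, 15.5% higher and 16.1% lower. The other 3 subunits also had log2 fold changes above 0 but missed the threshold. The median log2 fold change of the 6 was 0.67, beside -0.013 over all genes, of which 48.6% were above 0. In whole-brain RNA, a change in the number of cells that carry an mRNA and a change of its amount per cell cannot be told apart.

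Grin1, the subunit that every NMDA receptor contains, ranged from 67.7 CPM over a median of 209 to 353 CPM in PBS-treated brains, and from 123 over 363 to 523 CPM in HsTX1[R14A]-treated brains. The groups overlapped, with 5 of 9 treated brains above every PBS-treated brain and 8 of 9 above the PBS median. The exception was male 93, at 123 CPM. Its log2 fold change was 0.81 (standard error 0.27, FDR = 0.0301). Grin1 lost its call in 4 of the 21 fits that left out 1 mouse, namely without PBS-treated male 90 (FDR = 0.0578), HsTX1[R14A]-treated female 98 (0.0609), male 88 (0.0510) or male 81 (0.0630). It was also not called without the sex term (FDR = 0.0570, 18.3% of all genes called).

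Grin2b, which encodes 1 of the glutamate-binding GluN2 subunits, spanned 75.1 to 296 CPM around a median of 166 in PBS-treated brains and 157 to 503 CPM around 349 in HsTX1[R14A]-treated brains. Again 5 of 9 treated brains were above every PBS-treated brain, and 6 of 12 PBS-treated brains were below every treated one. Its log2 fold change was 0.89 (standard error 0.22, FDR = 0.0169). Grin2b had the smallest p-value of the 6, at position 598 of the 16303 genes, and it kept its call in each of the 21 fits without 1 mouse. Grin2a, the subunit that gains on Grin2b after birth, spanned 65.7 to 207 CPM (median 152) in PBS-treated brains and 138 to 253 CPM (median 174) in treated ones. Only 2 of 9 treated brains lay above every PBS-treated brain. Its log2 fold change of 0.33 (standard error 0.18, FDR = 0.154) was the lowest of the subunits and did not pass.

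Grin2c and Grin2d, the GluN2 subunits with narrower sites of expression, missed the threshold. Grin2c was between 10.4 and 44.5 CPM (median 33.2) with PBS and between 23.2 and 67.7 CPM (median 41.6) with HsTX1[R14A]. The highest value belonged to treated male 74 and stood apart from the next treated brain, at 45.4 CPM. Its log2 fold change was 0.49 (standard error 0.22, FDR = 0.0825), and it passed in 1 of the 21 fits, without treated male 93 (FDR = 0.0429). Grin2d was between 1.90 and 20.6 CPM (median 8.88) with PBS and between 2.93 and 26.7 CPM (median 15.6) with HsTX1[R14A]. It had the greatest relative spread of the 6, with a coefficient of variation of 64.9% in PBS-treated and 54.4% in treated brains, and only 6 of 9 treated brains exceeded the PBS median. Its log2 fold change, 0.94, was the highest of the 6, with the largest standard error (0.38, FDR = 0.0575). It passed with DESeq2 (FDR = 0.0334, 37.8% of all genes called) and in 5 of the 21 fits without 1 mouse, those without PBS-treated female 84, males 102 or 83, or treated males 93 or 92 (FDR from 0.0241 to 0.0487).

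Grin3a, the subunit that lowers calcium entry, was between 18.9 and 51.1 CPM (median 32.0) in PBS-treated brains and between 33.4 and 72.6 CPM (median 38.8) in HsTX1[R14A]-treated brains. All 9 treated brains were above the PBS median, and 7 of 12 PBS-treated brains were below every treated one. The other 6 treated brains stood close together, from 33.4 to 40.0 CPM, below females 71 and 72 and male 88 at 72.6, 59.8 and 58.0 CPM. The log2 fold change was 0.54 (standard error 0.16, FDR = 0.0217), and the call was kept in each of the 21 fits without 1 mouse.

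**Figure D2:**
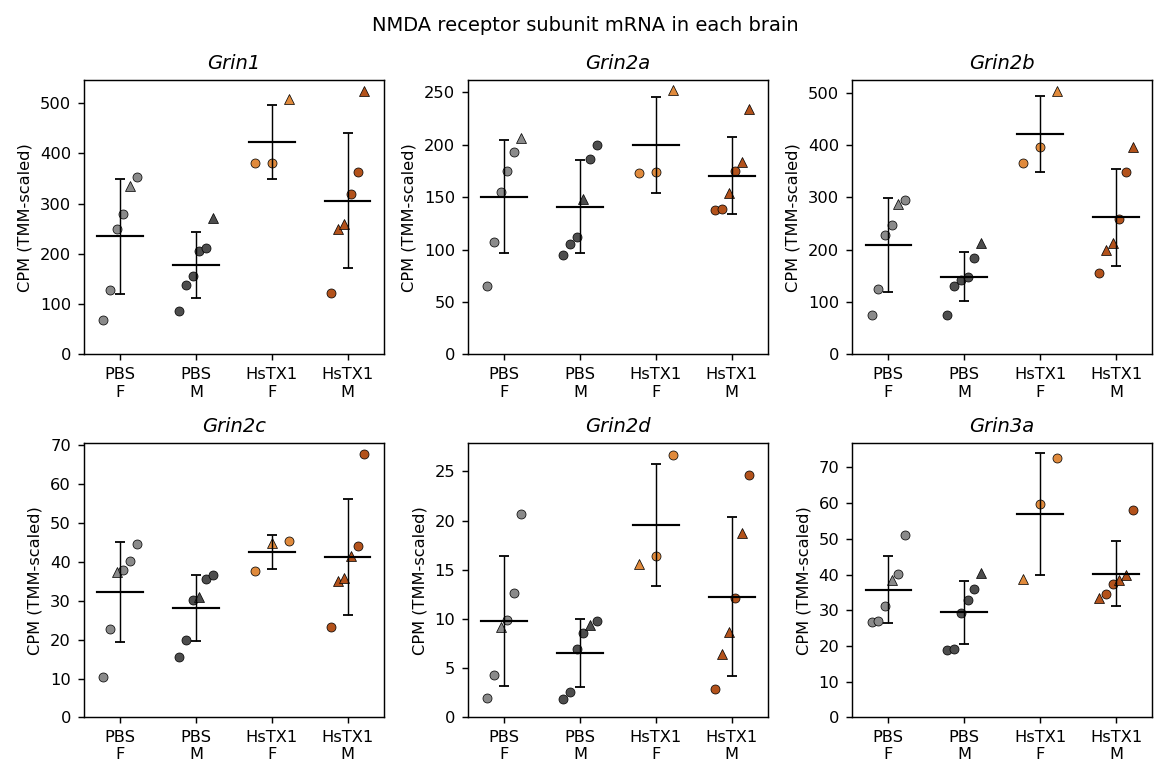
Level of each subunit mRNA in TMM-scaled CPM (linear axes from 0) by treatment and sex, 1 point per mouse, with the mean and ± SD; circles and triangles are the more and the less common spelling of the library name. The groups overlap for every subunit, and 5 of 9 treated brains lie above all 12 PBS-treated brains for Grin1 and Grin2b.

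The same brains were low or high for several subunits at once. Among the 21 brains, PBS-treated female 103 and male 90 were within the 4 lowest for all 6 subunits, and PBS-treated female 73 for 5. HsTX1[R14A]-treated females 98, 71 and 72 and male 81 were within the 4 highest for 4 subunits each. Which subunits these were differed, since 98 and 81 were high for Grin1 and Grin2a but not for Grin3a, where 71 and 72 led. With the means of the 4 groups of treatment and sex taken off, log2 CPM of Grin1 and Grin2b correlated at r = 0.965 over the 21 brains, Grin1 and Grin2d at 0.904 and Grin1 and Grin2c at 0.878. Grin2a and Grin3a had the lowest correlation of the 15 pairs, at 0.116. These are descriptions over 21 libraries in which both genes of a pair were measured at the same depth and length slope. Without brains 103 and 90, left out together after the data had been seen, Grin1, Grin2b and Grin3a were still called (log2 fold changes 0.65, 0.75 and 0.46, FDR = 0.0449, 0.0233 and 0.0431 by edgeR), as were 17.7% of all genes.

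No subunit differed between the sexes by the same fit, where 9 genes in all were called (0.0552%). The log2 difference of females from males lay between 0.14 (Grin2c) and 0.63 (Grin2d), all above 0. Grin2b had the smallest unadjusted p-value, 0.0177 (log2 difference 0.57, standard error 0.22, FDR = 0.446 by edgeR), and Grin3a followed at 0.0286 (0.37, standard error 0.16, FDR = 0.446). Neither passed after adjustment.

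The treatment difference was not detectably different in females and males. In females the log2 fold change ran from 0.40 (Grin2c) to 1.01 (Grin2b), and in males from 0.28 (Grin2a) to 0.92 (Grin2d). Grin2b was at 366, 396 and 503 CPM in the 3 treated females, each above all 6 PBS-treated females, the highest of which had 296 CPM. Treated males, from 157 to 396 CPM, overlapped with PBS-treated males, from 76.2 to 213 CPM. How many of all genes separated the groups of females in this way was not counted, so the separation cannot be read as particular to Grin2b. The interaction of treatment and sex gave an FDR of 1 for every subunit (edgeR), and the lowest unadjusted p-value, of Grin3a, was 0.516. The difference between the sexes' log2 fold changes carried standard errors from 0.33 (Grin3a) to 0.79 (Grin2d), so that only large differences would have been seen with 3 treated females. Over all genes, 0 were called for the interaction (0%) by edgeR, with 270 at an unadjusted p under 0.05, and 0 by DESeq2 and by limma/voom (309 and 250).

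Subunit ratios within a brain do not depend on the scaling of its library, and the Grin2a to Grin2b ratio differed between the groups. On the log2 scale of counts it ran from -0.757 over a median of -0.327 to 0.439 in PBS-treated brains, and from -1.34 over -0.756 to -0.117 in HsTX1[R14A]-treated brains. All 3 treated females (-1.07, -1.19 and -0.995) and treated male 88 (-1.34) were below every PBS-treated brain, while treated males 92 and 93 (-0.117 and -0.168) were above the PBS median. The sex-averaged difference was -0.58 (exact permutation test of the labels within sex, two-sided, 77616 labelings, p = 0.000709, adjusted over the 6 ratios 0.00425), and it stayed below 0 and past the threshold in all 21 tests without 1 mouse. The longest transcripts of Grin2a and Grin2b have 14634 and 24060 bases, and the ratio shows unequal change of these mRNAs, not which of them moved.

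Among the 15 brains with the more common spelling of the library name, the Grin2a to Grin2b difference was -0.71 (exact permutation test, p = 0.00255, adjusted 0.0153). Within the 6 mice of the other spelling it was -0.22 (exact permutation test, p = 0.75), where 8 labelings allow no p below 0.05. With the length slope as a covariate the difference was -0.25 (permutation test, p = 0.0363, adjusted 0.109). Slope and treatment partly go together and the permuted labels do not keep that link, so this p can be too small. Permuted without regard to sex, it was -0.49 (permutation test, p = 0.0106, adjusted 0.0634).

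The other 5 ratios did not pass after adjustment. Grin2a to Grin1 had a median of -0.468 in PBS-treated and -1.01 in treated brains (difference -0.49, exact permutation test, p = 0.0239, adjusted 0.0620), and Grin2c to Grin1 medians of -2.71 and -3.04 (difference -0.35, p = 0.0310 by the same exact test, adjusted 0.0620). Grin2b to Grin1 held nearest to a constant value, between -0.564 and 0.149 in PBS-treated and between -0.403 and 0.35 in treated brains, with a difference of 0.087 (exact permutation test, p = 0.338, adjusted 0.406). Grin2d to Grin1 and Grin3a to Grin1 differed by 0.19 and -0.32 (exact permutation test, p = 0.413 and 0.268). Length slope as a covariate changed which ratio passed: Grin2b to Grin1 then differed by 0.26 (permutation test, p = 0.000979, adjusted 0.00588) and Grin2a to Grin2b no longer did. The mean slope was 0.102 in treated and -0.076 in PBS-treated brains, a link that the permuted labels do not keep. The p-values with this covariate can therefore be too small, and the pass of Grin2b to Grin1 is uncertain.

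**Figure D3:**
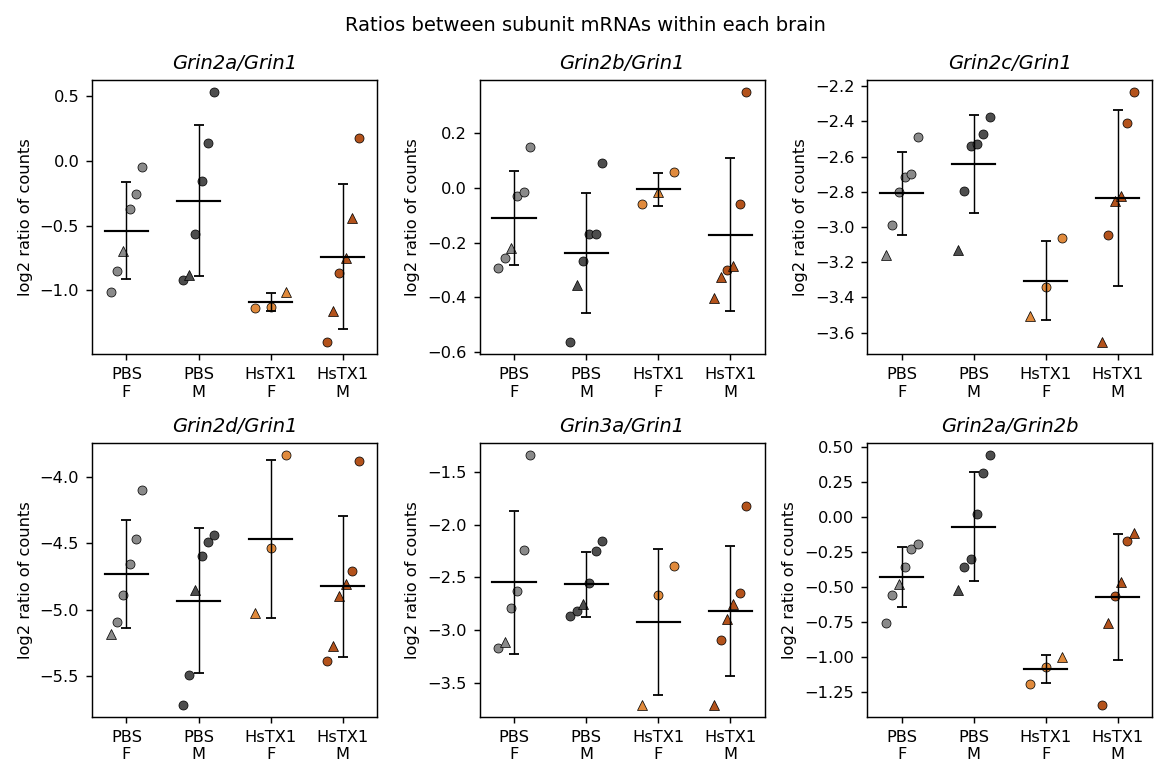
Log2 ratio of the counts of 2 subunit mRNAs in the same brain, by treatment and sex, 1 point per mouse, with the mean and ± SD; circles and triangles are the more and the less common spelling of the library name. For Grin2a/Grin2b, the only ratio that passed, the 3 treated females lie between -1.19 and -0.995, below all PBS-treated brains.

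Levels of Grin1, Grin2b and Grin2d followed the length slope of the library within each treatment group, and those of the other 3 subunits did so with an r past the threshold in PBS-treated brains only, a difference between the groups that was not tested. How many of all genes followed the slope in this way was not counted. The relation can therefore not be read as particular to these subunits. In the 12 PBS-treated brains Grin1 gave r = 0.969 (Spearman's rho 0.923, permutation p = 1e-05, the smallest the resampling can give, and 7e-05, adjusted over 12 relations 4e-05 and 0.000326), and in the 9 treated brains r = 0.981 (rho 0.967, exact permutation p = 3.03e-05 and 0.000165, adjusted 6.06e-05 and 0.000326). Without the 2 brains farthest from the median slope these were 0.918 and 0.948. Within the more common library spelling r was 0.976 in the 10 PBS-treated brains, and no r is given for the other 3 sets, which hold 2 to 5 brains each. Grin2b and Grin2d behaved alike, with r of 0.945 and 0.953 in PBS-treated brains and 0.968 and 0.919 in treated brains, and 0.859, 0.91, 0.982 and 0.757 without those 2 brains. Their rho lay between 0.733 and 0.967, with an adjusted permutation p of at most 0.0021 for r and 0.0466 for rho (exact in the treated group).

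Grin2a followed the slope least in PBS-treated brains (r = 0.743, rho 0.594, permutation p = 0.00548 and 0.0457, adjusted 0.00731 and 0.0609), and there the relation rested on brains 103 and 90, without which r was 0.371. Grin2c and Grin3a had r = 0.964 and 0.831 in PBS-treated brains (rho 0.902 and 0.93, permutation p = 1e-05 and 0.00092 for r and 0.00014 and 4e-05 for rho, adjusted 4e-05 and 0.00158 and, for both rho, 0.000326), and 0.907 and 0.913 without 103 and 90. Within the more common spelling r was 0.718 for Grin2a, 0.965 for Grin2c and 0.819 for Grin3a (10 PBS-treated brains). In the treated group Grin2a, Grin2c and Grin3a did not pass (r = 0.643, 0.633 and 0.531, rho 0.617, 0.55 and 0.65, exact permutation p = 0.0637, 0.0803 and 0.142 for r and 0.0857, 0.133 and 0.0666 for rho, adjusted 0.0764, 0.0876 and 0.142 and 0.0935, 0.133 and 0.0799). Without treated males 93 and 89 their r was 0.45, -0.047 and 0.403.

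**Figure D4:**
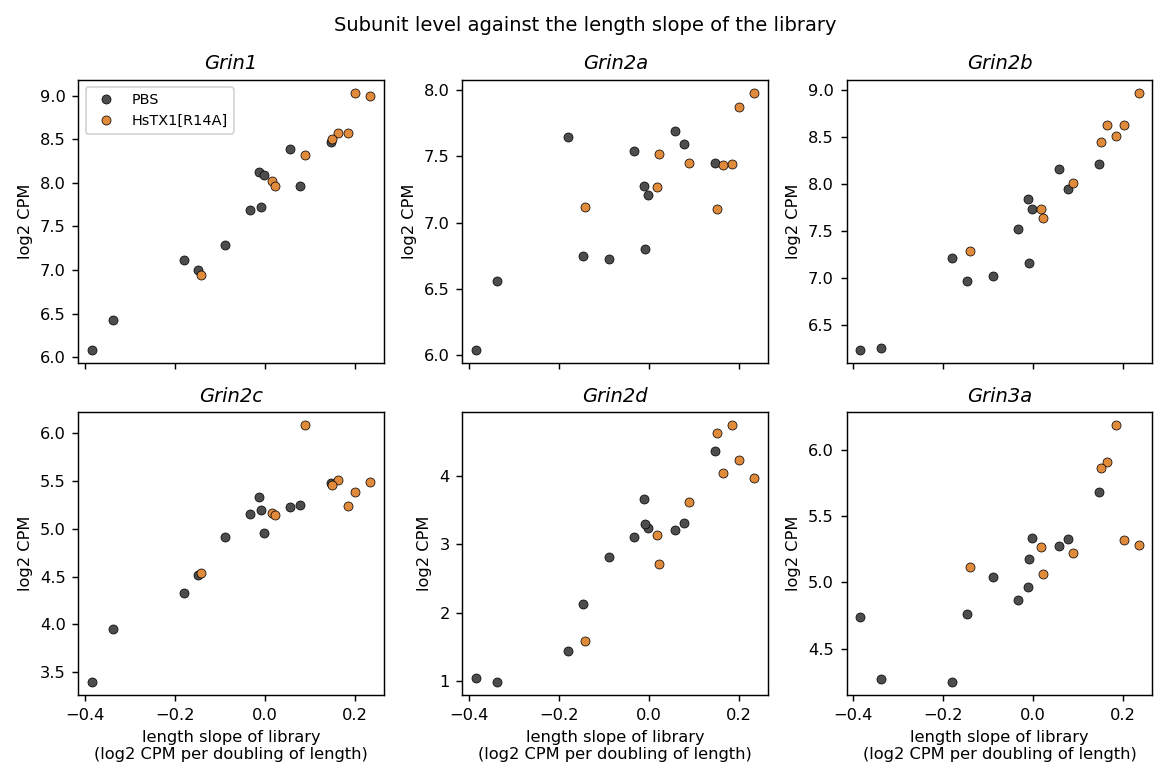
Log2 CPM of each subunit against the length slope of the library (log2 CPM per doubling of transcript length), 1 point per mouse, PBS-treated dark and HsTX1[R14A]-treated orange. Grin1 lies close to 1 line in both groups (r = 0.969 and 0.981). Grin2a, Grin2c and Grin3a had r = 0.743, 0.964 and 0.831 in PBS-treated brains and 0.643, 0.633 and 0.531 in treated brains.

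With the length slope of each library added to the model, no subunit and no gene at all was called (0% of 16303 by edgeR, 1865 at an unadjusted p under 0.05). Grin2b and Grin3a kept log2 fold changes above 0, at 0.18 (standard error 0.10) and 0.20 (standard error 0.14). Those of Grin1, Grin2a, Grin2c and Grin2d turned to -0.083, -0.093, -0.13 and -0.29. When instead each library's trend on length and GC content was removed gene by gene, Grin1 and Grin2b were called at log2 fold changes of 0.45 and 0.43 (FDR = 0.0437 and 0.0141), Grin3a was at 0.25 (FDR = 0.121) and Grin2a at -0.0098, among 15.3% of all genes called. Slope and treatment partly go together in these libraries, and the part of the slope in the subunits' differences was not tested.

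Among the 15 brains with the more common spelling of the library name, the log2 fold changes were 0.78 for Grin1, 0.93 for Grin2b and 0.77 for Grin3a, with FDR = 0.111, 0.0621 and 0.0563 (edgeR, 0% of all genes called, 5797 at an unadjusted p under 0.05). Grin2a, Grin2c and Grin2d stood at 0.20, 0.58 and 1.14. Within the 6 mice of the other spelling they were 0.45 for Grin1, 0.53 for Grin2b and -0.064 for Grin3a, with an FDR of at least 0.855 for each of the 6 subunits (0% called, 532 genes at an unadjusted p under 0.05). With the spelling as a covariate over all 21 mice, Grin2b and Grin3a were called (0.81 and 0.55, FDR = 0.0409 and 0.0439) and Grin1 was not (0.68, FDR = 0.0679), beside 12.3% of all genes.

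**Figure D5:**
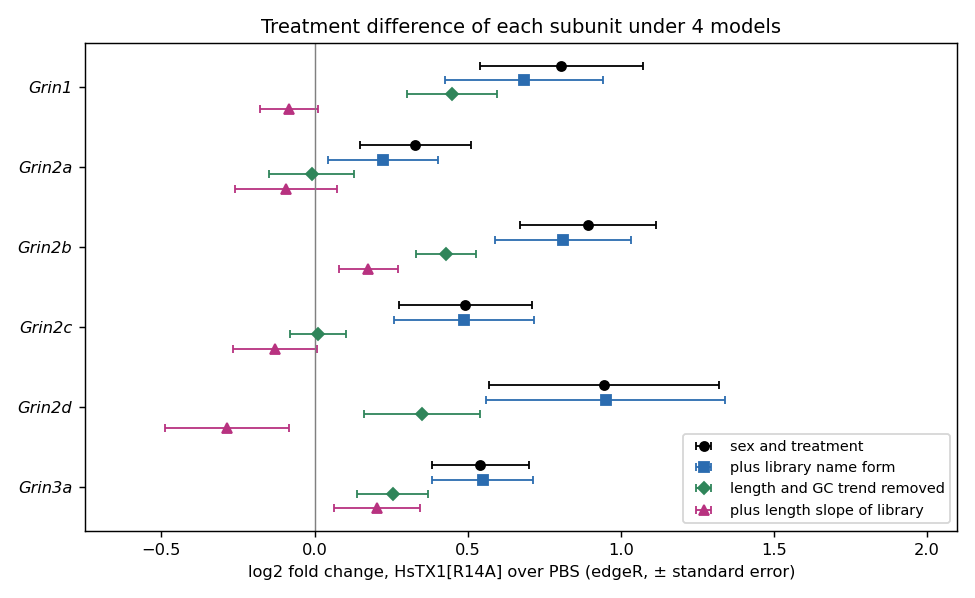
Log2 fold change of each subunit, HsTX1[R14A]-treated over PBS-treated, with its standard error, under 4 models. All 6 are above 0 in the model of sex and treatment and with the library spelling added, whereas with the length slope of the library added only Grin2b (0.18) and Grin3a (0.20) remain above 0.

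Other contents of the brains were compared in the same fit, in which 15.5% of all genes were called higher and 16.1% lower in treated brains. Here and for the receptor's partner genes below, a gene counted as higher or lower is one called at the FDR threshold. All genes of the mitochondrial genome in the data, not only its mRNAs, made up 9.33 to 20.2% of counts in PBS-treated and 7.13 to 13.5% in treated brains. Its 13 mRNAs summed to 70620 to 185900 CPM in PBS-treated and 56300 to 108700 CPM in treated brains, and 12 of them were lower in treated brains. Of 12 neuron markers 4 were higher, with a summed level of 6772 to 9662 CPM in PBS-treated and 8146 to 11510 CPM in treated brains, and 0 of 11 forebrain excitatory neuron markers were called (1092 to 3072 and 1589 to 3486 CPM). Cerebellar granule cells, a known site of Grin2c, had 1 of 10 markers higher (146 to 387 and 171 to 877 CPM), and GABAergic interneurons, a known site of Grin2d, 2 of 10 higher and 1 lower (848 to 1387 and 1054 to 1492 CPM). Among glia, 6 of 10 oligodendrocyte markers (4518 to 6917 and 3432 to 5049 CPM), 4 of 10 microglia markers (426 to 619 and 360 to 536 CPM) and 4 of 10 astrocyte markers (3413 to 5087 and 3413 to 5128 CPM) were lower. Of vessel and choroid plexus markers, 2 of 10 (82.0 to 159 and 99.3 to 180 CPM) were higher and 0 of 10 (288 to 1550 and 192 to 1265 CPM) were called. The part of these values in the subunits' differences was not tested.

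Of 70 genes that act with the receptor, 23 were called, 18 of them higher in treated brains, beside 31.6% of all genes called and 15.5% called higher. Among 11 genes that supply or remove glycine and D-serine, 1 was higher and 1 lower, with a median log2 fold change of -0.0235. The amino acid transporter Slc1a4, which carries serine, was higher (45.1 ± 9.34 CPM with PBS and 55.8 ± 9.98 CPM with HsTX1[R14A], SD, n = 12 and 9, FDR = 0.0367), and Psat1, an enzyme of serine synthesis, was lower (139 ± 21.4 and 109 ± 18.7 CPM, FDR = 0.0174). Gldc, which breaks down glycine, and Psph, the last enzyme of serine synthesis, had log2 fold changes of 0.34 and -0.31 (FDR = 0.0547 and 0.0757).

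Among 19 scaffolds and anchoring proteins, 4 were higher and 1 lower (median log2 fold change 0.14). Dlg3, a scaffold that binds GluN2 tails, was higher (134 ± 23.04 and 164 ± 17.9 CPM, FDR = 0.0258), as was the PDZ protein Grip1 (19.1 ± 2.20 and 22.4 ± 3.47 CPM, FDR = 0.0223). Lin7c, of a complex that carries receptor cargo along dendrites, was lower (126 ± 21.1 and 104 ± 16.9 CPM, FDR = 0.0317), and the PDZ protein Gipc1 had a log2 fold change of -0.14 (FDR = 0.205). Kinases and phosphatases of the receptor had 7 of 19 higher and 1 lower (median 0.23). Akap9, whose product anchors kinase and phosphatase to GluN1, rose from 77.2 ± 24.2 to 114 ± 22.6 CPM (FDR = 0.0153). Ppp3ca, a catalytic subunit of calcineurin, was lower (1874 ± 279 and 1569 ± 303 CPM, FDR = 0.0357), and Ppp1ca, of protein phosphatase 1, had a log2 fold change of -0.37 (FDR = 0.0510).

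Downstream of the receptor, 6 of 21 genes were higher and 2 lower (median 0.41). Tiam1, a Rac exchange factor, was at 58.5 ± 18.4 and 99.1 ± 29.3 CPM (FDR = 0.0151), and Dusp4, a phosphatase of MAP kinases, at 4.24 ± 1.28 and 6.77 ± 1.78 CPM (FDR = 0.0151). Calm2, which encodes calmodulin, was lower (1658 ± 333 and 1356 ± 311 CPM, FDR = 0.0448). With the length slope in the model 0 of the 70 were called, beside 0% of all genes, and with the length and GC trend removed 12 were, beside 15.3% of all genes.

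Genes whose levels went most closely with each subunit were sought among 10462 genes averaging at least 3 on the log2 CPM scale, over the 21 brains with the 4 group means taken off. For Grin1 they were Arhgef17, Tmem63b and Prrt3 (r = 0.992, 0.99 and 0.99), against a median r of 0.089 over all genes. Grin2b was followed by D630045J12Rik, Tanc2 and Unc13a (0.984, 0.982 and 0.977), and Grin2a by Sidt1, Rtn4r and Mical2 (0.963, 0.96 and 0.959). Grin2c went with Sbk1, Ctdsp2 and Gm996 (0.978, 0.975 and 0.973), Grin2d with Ttc28, Slc6a9 and Kcnh2 (0.987, 0.987 and 0.983), and Grin3a with Timp2, Pcdh8 and Nrp2 (0.948, 0.948 and 0.947). No gene was among the 3 closest of more than 1 subunit. In each library both genes were measured at the same depth and length slope, and these r values are descriptions. Of the 18 genes, 17 were found again with another scaling and 14 with the group means kept, where Sidt1, Tanc2, Unc13a and Gm996 were not.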

How the data were processed

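RNA from whole brains of 21 SAMP8 mice was sequenced, 1 library per mouse. Per the study's methods and the labels, the authors aligned reads to GRCm38 with STAR and quantified genes with Salmon, and they deposited estimated counts of 16318 genes, not normalized. The labels name another library kit than the methods. Of these counts, 90.5% lay within 0.01 of a whole number, and each was then rounded. The 53 other per-sample columns (37 of CPM and 16 of counts) and the authors' columns of fold change, p-value and FDR were not used.

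Groups came from the sample titles, which spell the peptide HxTX1[R14A]. Genes passing filterByExpr for the 4 groups of treatment and sex (16303) entered edgeR 4.0.16 under R 4.3.3 with TMM scaling, and glmQLFit and glmQLFTest were run on a model of sex and treatment. Standard errors are the log2 fold change over the square root of F. A first trial gave filterByExpr the model matrix, and it was replaced after the subunits' values had been seen. For log2 CPM, 2 was the prior count. Lengths came from GENCODE for GRCm38 and were found for 99.5% of genes. The loess trend on length and GC content had a span of 0.5. Ratios were compared by exact permutation of treatment within sex. Alternatives used limma 3.58.1 and DESeq2 1.42.0, and the scripts were tested on simulated data.

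Library totals were 14917174 to 47613792 counts, and the spread between mice, not counting error, set the precision. The mice were separate animals.

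The subunits and the gene lists were chosen with earlier results of these data known. Beside the 6 subunits, the genes named are, per list of receptor partners, the 2 with the smallest p-value in each direction that holds a called gene, and for each subunit the 3 with the highest correlation. Fat2, Cbln3 and Gabra6 are named as the cerebellar granule cell markers with the lowest means in PBS-treated brains. Dao, Slc6a5, Rack1 and Barhl1 of the lists were not analysed here, and some genes that the rule selects are not reported here.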

Additional observations from a re-analysis of the deposited data

Results flagged for a closer look

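Among the 6 HsTX1[R14A]-treated males, the Grin3a level of male 88 (58.0 CPM) stood far from the others, which lay between 33.4 and 40.0 CPM. Its gap to the nearest male was 0.734 of the range of the 6. It was the only such value in 36 sets of 6 mice (the levels of the 6 subunits and the 6 ratios, in the 3 groups large enough for this comparison), and chance alone singles out about 1 in 20 groups.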

How the results depend on the processing

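The number of genes called (5144) moved to 2984 without the sex term, 1999 with the library spelling as a covariate, 2499 with the length and GC trend removed, 2887 without PBS-treated mice 103 and 90 (chosen after the data had been seen), and 0 within either library spelling or with the length slope as a covariate. For the 70 receptor partners (23 called) the same settings gave 13, 11, 12, 15 and 0, and for the 6 subunits (3 called) 0 within either spelling and with the length slope. With 1 mouse left out at a time, 2289 (without PBS-treated male 90) to 6614 genes, 12 to 34 partners, 2 to 5 subunits (5 without treated male 93) and 1 to 3 ratios passed. Without treated mice 98, 71, 88 or 81 the genes were 3005, 3332, 3121 and 3263. The partners were 12 without 90 or 98 and 14 without 88 or 81, and the ratios 3 without PBS-treated 102 or treated 93 and 2 without 84, 83 or 74. The filter of the first trial gave 5152 of 16285 genes and the same 3 subunit calls. Without the sex term Grin1 was not called (FDR = 0.0570).

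With the length slope as a covariate the treatment difference reversed for Grin1 (-0.083), Grin2a (-0.093), Grin2c (-0.13) and Grin2d (-0.29), the sex difference for Grin1 (-0.049), Grin2a (-0.12), Grin2c (-0.23) and Grin2d (-0.018), the interaction for Grin1 (-0.069) and Grin2d (-0.025), and the ratios over Grin1 for Grin2a (0.0086), Grin2d (-0.22) and Grin3a (0.27), none of them past the threshold. Grin2a was at -0.0098 with the length and GC trend removed, and Grin3a at -0.064 within the less common spelling. No ratio passed (0 of 6) within the less common spelling or with labels permuted without regard to sex. Leaving out 1 mouse, the interaction ran from -0.13 to 0.29 for Grin1, -0.045 to 0.25 for Grin2a, -0.34 to 0.040 for Grin2c and -0.21 to 0.42 for Grin2d. The cause of these moves was not tested. The study's methods state that mice were randomized to the peptide or PBS within cages, but the sample titles do not name the cage. No analysis paired or blocked by cage was therefore possible. The numbers in the labels each name 1 mouse, and no number occurs in more than 1 group.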
